A study of Drosophila melanogaster with 20 samples.

Results

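The ionotropic receptors (IRs) and gustatory receptors (GRs) are the receptor families with which Drosophila neurons detect acids, amines, CO2, sugars, bitter compounds, temperature and humidity. An IR works as a complex in which a broadly expressed co-receptor is joined by a tuning receptor that sets the ligand. GRs form channels of several subunits in taste neurons of the mouthparts and legs, and a pair of them serves as the CO2 receptor of the antenna. Most members of either family are made in few sensory neurons, so in whole heads their RNA is rare. The genes described here are the 126 rows of the count table whose gene ID carried an Ir or Gr symbol with a cytological number and a letter, 66 Ir and 60 Gr genes of 17558 gene IDs in all. The annotation lists 6 of the Ir genes as pseudogenes.

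Total RNA had been sequenced from whole heads of adults 1 day after eclosion, with 5 libraries in each of 4 genotypes. Wild type was w1118. Δfne flies lacked the neuronal RNA-binding protein FNE and were fneΔ/fneKOZ2 females together with males hemizygous for either allele, where fneΔ is a deficiency of the X chromosome, Df(1)fneΔ in the study's methods. Δrbp9 flies lacked the related RBP9 and carried rbp9P2690 over Df(2L)ED206, a deficiency that also removes neighbouring genes from that homolog, and ΔfneΔrbp9 flies combined these X and second chromosome genotypes. All flies were untreated, and each library pooled heads of males and females in equal number per the study's methods. The mutant chromosomes came from other stocks than w1118, so an effect of the genotype and one of the chromosomes' background cannot be told apart in a comparison with wild type. In whole heads, fewer cells of a type and less RNA per cell cannot be told apart either.

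Library totals ranged from 10289950 to 25325636 counts. fne RNA fell by 1.16 on the log2 scale in Δfne and by 1.14 in ΔfneΔrbp9, and Rbp9 RNA fell by 4.67 in Δrbp9 and by 4.72 in ΔfneΔrbp9, each in the direction of its label. The receptor gene nearest to fne was Ir11a, at 540 kb, and the nearest to Rbp9 was Gr23a, at 283 kb. The summed level of 10 antennal and palp markers, all above the count minimum, was 1463 to 1823 CPM (counts scaled to each library's total and TMM factor) in wild type, 1603 to 1773 in Δfne, 1582 to 1787 in Δrbp9 and 1585 to 1703 in ΔfneΔrbp9, so the sums overlapped. Obp19d alone held 914.7 CPM of the wild-type sum. Among the other markers Orco (log2 0.58) and Obp84a (log2 1.17) were called higher in Δfne. There a10 (log2 0.34, adjusted p = 1.84e-05) and Snmp1 (log2 0.28, adjusted p = 0.000101) passed the p cutoff but not the fold cutoff. The same held in the other direction for Obp83a (log2 −0.41, adjusted p = 0.00011). Of the 10 markers, 2 were called higher and 0 lower in Δfne, 1 higher and 2 lower in Δrbp9, and 1 higher in ΔfneΔrbp9. The sum of 9 taste organ markers was 360.1 to 391.7 CPM in wild type, above all Δrbp9 libraries at 288.4 to 326.3 CPM and all ΔfneΔrbp9 libraries at 319.5 to 339 CPM. Δfne, at 338.5 to 363.2 CPM, lay between and overlapped wild type and ΔfneΔrbp9. Obp57c alone held 160 CPM of the wild-type sum. Of these markers, Obp19b (log2 0.62) was called higher and Obp57b (log2 −0.63) and ppk28 (log2 −1.62) lower in Δfne. Obp57b was called lower in Δrbp9 (log2 −0.64) and ppk28 in ΔfneΔrbp9 (log2 −1.71). The sum of 6 neuronal markers overlapped in every pair of genotypes, but not every single marker did. All ΔfneΔrbp9 libraries were below wild type for nSyb (log2 −0.10) and above it for Syt1 (log2 0.15) and elav (log2 0.11). Syn, brp and Rdl overlapped there, and no neuronal marker was called. The 5 glial markers summed to 2849 to 3345 CPM in wild type and to less in every library of Δrbp9 (2441 to 2676 CPM) and of ΔfneΔrbp9 (2489 to 2663 CPM). The sum of 5 eye markers was 17390 to 18770 CPM in wild type and lower in every Δrbp9 library, at 15630 to 16000 CPM. The yolk protein genes, which females express, differed between wild-type libraries from 2060 to 18600 CPM in sum. Whether these differences had a part in the receptor results was not tested.

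Receptor transcripts took 0.00865 to 0.0113% of all counts of a library, and few genes supplied most of them. The 3 most abundant receptor genes held 33.3% of the receptor counts, the top 10 held 65.1%, and the 28 that passed the minimum for testing, a normalized count averaging above 10 across all 20 libraries, held 89.1%. A gene was taken as detected in a genotype when at least 1 of its 5 libraries had more than 3 counts. By that rule 80 receptor genes were detected in at least 1 genotype (41 Ir and 39 Gr), 48 in all 4 genotypes and 46 in none. Only 25 had more than 3 counts in every library, and 8 had no count in any library, namely Gr10a, Gr57a, Gr64b, Gr64c, Ir7b, Ir7g, Ir56e and Ir68b. In the annotation Gr10a shares 100% of its exon bases with Or10a, and Gr64b shares 100% with Gr64c, on the same strand. On the other strand lncRNA:CR44212 overlaps 56.3% of the exon bases of Ir56e. Reads from such stretches could be dropped by the counting, so for these genes a count of 0 does not show absence. A floor of 3 counts corresponds to 0.118 CPM in the deepest library and to 0.294 CPM in the shallowest, and it covers counting error only.

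A library showed 44 to 49 receptor genes in wild type, 36 to 54 in Δfne, 43 to 51 in Δrbp9 and 37 to 49 in ΔfneΔrbp9, and the fewest were in the shallowest library of Δfne and of ΔfneΔrbp9. Over a whole genotype 65 genes were detected in wild type, 62 in Δfne, 62 in Δrbp9 and 58 in ΔfneΔrbp9. In a single random thinning of all libraries to the smallest total, the counts became 47, 49, 51 and 53 in the same order of genotypes. Wild type thus went from the most genes to the fewest in that draw, and many genes lay near the floor. No difference in the number of receptors detected was established.

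**Figure D1:**
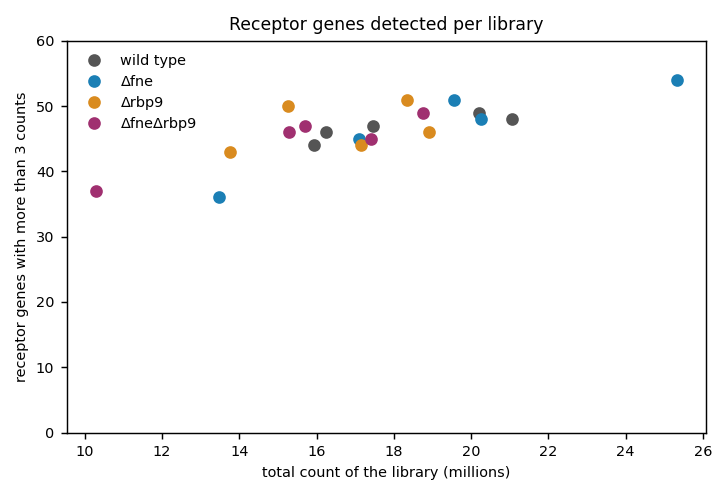
Number of receptor genes with more than 3 counts (y axis) against the total count of the library (x axis, in units of 1e6 counts), 1 point per library, coloured by genotype. The deepest library, of Δfne, showed 54 genes and the shallowest, of ΔfneΔrbp9, showed 37.

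By role, all 3 IR co-receptors, all 10 antennal olfactory IRs and all 4 temperature and humidity IRs were detected, against 24 of 49 other IRs. Of the antennal IRs, Ir75d shares 90.7% of its exon bases with COX6AL2 on the same strand. Its reads could thus be ambiguous to the counting, and its count may not show its expression. Among the GRs both CO2 receptors, 5 of 9 sugar receptors, 12 of 14 bitter receptors and 18 of 33 others were detected. The sugar receptors not detected were Gr64b, Gr64c, Gr64d and Gr64e, whose shared exon bases could make their reads ambiguous to the counting. Summed over the genes of a role, the mean level was 27.3 CPM for the co-receptors, 26.4 CPM for the other IRs, 17.7 CPM for the antennal IRs and 10.9 CPM for the temperature and humidity IRs. The GR roles were lower, with 5.58 CPM for bitter, 3.90 CPM for CO2 and 3.12 CPM for sugar receptors.

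The highest mean levels over the 20 libraries were those of Ir25a (13.6 CPM), Ir47a (10.2 CPM), Ir76b (9.16 CPM), Ir62a (7.24 CPM), Ir76a (6.04 CPM), Ir68a (5.38 CPM), Ir8a (4.50 CPM), Ir21a (3.12 CPM), Ir64a (2.86 CPM), Gr63a (2.43 CPM), Ir31a (2.09 CPM) and Ir47b (2.04 CPM). Per kilobase of annotated exon the levels of Ir62a (3.98 CPM per kb), Ir76b (3.97 CPM per kb) and Ir25a (3.797 CPM per kb) came close to each other, and Gr63a (1.65 CPM per kb) was the highest Gr gene. At the edge of the count minimum, Gr64a, Ir41a and Ir84a lay just inside with mean normalized counts of 13.8, 13.0 and 10.8, and Gr39a, Ir75d and Ir56d just outside with 8.91, 8.83 and 8.03.

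**Figure D2:**
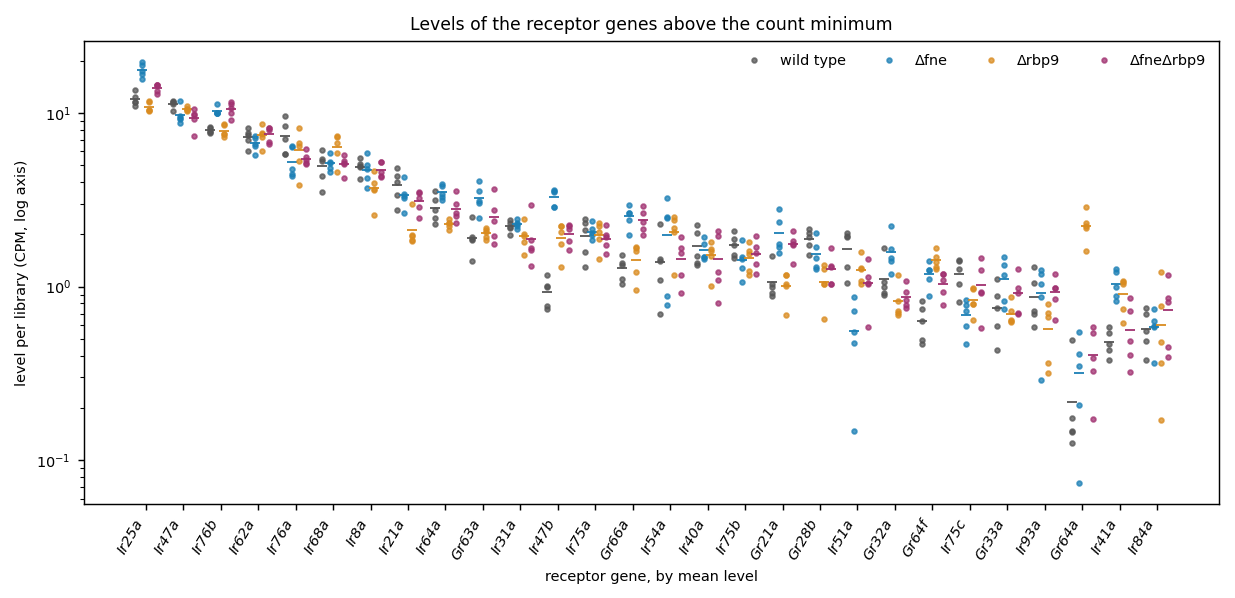
CPM of the 28 receptor genes above the count minimum (y axis, log scale) for each library, ordered by mean level, with points coloured by genotype and a horizontal line at each genotype mean. Levels span from the co-receptor Ir25a, with 10.3 to 19.7 CPM, to genes under 1 CPM, and the 5 Δrbp9 points of Gr64a stand apart from its other points.

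To ask which receptors depend on FNE and RBP9, each mutant was set against wild type, and ΔfneΔrbp9 against Δfne and against Δrbp9. Genes counted as called had an adjusted p under 0.01 and a log2 fold change beyond 0.5 in size (edgeR quasi-likelihood F-test, two-sided, Benjamini-Hochberg over 10560 genes). In Δfne, 7 of the 28 receptor genes tested rose and 1 fell, where 4.14% of all genes tested were called higher and 3.9% lower. In Δrbp9, 4 rose and 2 fell, against 3.45% and 4.6% of all genes. In ΔfneΔrbp9, 3 rose and none fell, against 4.65% and 4.88%. Without adjustment, 11 receptor genes had p below 0.05 in that comparison, and DESeq2 also called 0 of them lower. The share of the receptor genes called was thus 28.6%, 21.4% and 10.7% against 8.04%, 8.05% and 9.53% of all genes, so in the double mutant it was near the background. Libraries of the 2 groups did not overlap for 8, 5 and 3 of the 28 receptor genes in Δfne, Δrbp9 and ΔfneΔrbp9, against 17.5%, 21.2% and 23.1% of all genes. Gr64a passed the count minimum through Δrbp9 alone and Ir41a through the single mutants, where each is high, so these 2 had to be high there, and the shares of receptor genes are given as a description only. The 3 comparisons share the wild-type libraries. In all, 11 receptor genes were called against wild type, 6 of them in 1 mutant, 4 in 2 mutants, and Ir47b in all 3.

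The median log2 fold change of the 28 receptor genes was 0.08 in Δfne, −0.11 in Δrbp9 and 0.05 in ΔfneΔrbp9, and over all genes it was 0.01, 0.00 and −0.00. The 8 Gr genes among them had a median of 0.69 in Δfne, −0.00 in Δrbp9 and 0.55 in ΔfneΔrbp9, and the 20 Ir genes 0.02, −0.15 and −0.03. Summed over all 60 Gr genes, wild-type libraries held 13.2 to 14.4 CPM, Δfne libraries 18.2 to 19.8 CPM, Δrbp9 libraries 16.4 to 19.9 CPM and ΔfneΔrbp9 libraries 15.4 to 21.3 CPM. Every mutant library was thus above every wild-type library, and in Δrbp9 the mean of Gr64a alone went from 0.218 to 2.25 CPM. The sum of the 66 Ir genes overlapped between all genotypes, with 79.0 to 87.4 CPM for wild type, 80.9 to 93.4 CPM for Δfne, 69.7 to 82.2 CPM for Δrbp9 and 80.6 to 85.0 CPM for ΔfneΔrbp9.

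**Figure D3:**
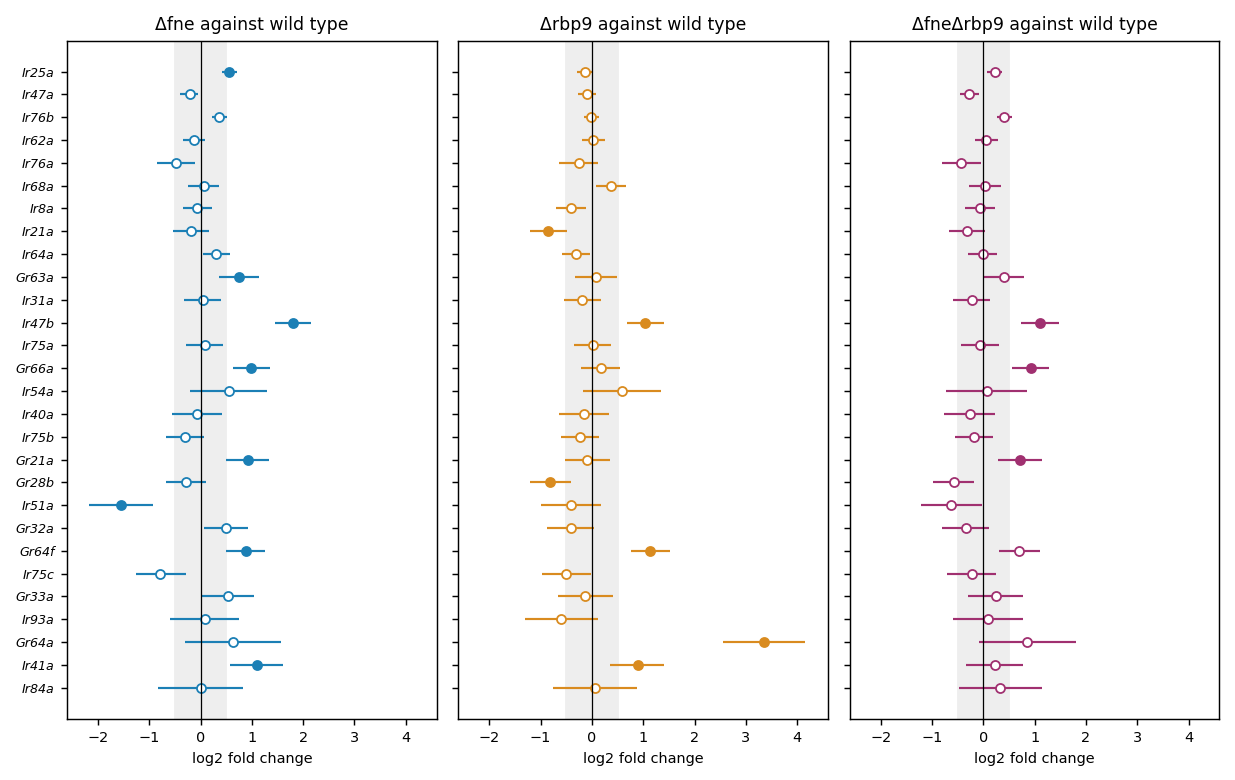
Log2 fold change against wild type (x axis) of the 28 receptor genes tested, ordered by mean level, in Δfne, Δrbp9 and ΔfneΔrbp9, with 95% intervals. Filled points are called, open points are not, and the grey band marks absolute values up to 0.5. Ir47b is filled in all 3 panels, and Gr64a reaches 3.35 in Δrbp9.

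Among the co-receptors, Ir25a, which acts with many olfactory, taste, temperature and humidity IRs, rose in Δfne. Its levels in wild-type replicates 1 to 5 were 12.3, 13.6, 11.6, 10.9 and 11.5 CPM, and in Δfne they were 15.7, 19.7, 19, 17.4 and 16.7 CPM. All 5 Δfne libraries lay above all wild-type libraries, with a log2 fold change of 0.56 (SE 0.0691, adjusted p = 2.89e-06). Δrbp9, with 10.8 ± 0.673 CPM (SD, n = 5), overlapped wild type with 11.98 ± 1.05 CPM. ΔfneΔrbp9 had 12.8 to 14.5 CPM, below Δfne, and overlapped wild type, against which it was not called (log2 0.22, adjusted p = 0.0208). Its differences from Δfne (log2 −0.34, adjusted p = 0.000743) and from Δrbp9 (log2 0.36, adjusted p = 0.000853) passed the p cutoff with no overlap of libraries but stayed under the fold cutoff. The gene lies at 4830846 to 4835300 on the minus strand of chromosome 2L, and none of the 15 genes tested within 50 kb was called against wild type.

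Ir76b, a co-receptor of amine-sensing olfactory neurons and of many taste neurons, was higher in both genotypes without FNE. Wild-type libraries ranged from 7.66 to 8.34 CPM, Δfne libraries from 9.97 to 11.3 CPM, Δrbp9 libraries from 7.23 to 8.68 CPM and ΔfneΔrbp9 libraries from 9.15 to 11.6 CPM. All libraries without FNE therefore lay above all libraries with FNE. Against wild type the log2 fold change was 0.37 in Δfne (SE 0.0695, adjusted p = 0.000404) and 0.41 in ΔfneΔrbp9 (SE 0.0702, adjusted p = 0.000119), under the fold cutoff, and −0.01 in Δrbp9 with a 95% interval of −0.16 to 0.14. Ir8a, the co-receptor of acid-sensing IRs, was called in no comparison. Its mean was 4.91 ± 0.501 CPM for wild type, 4.71 ± 0.827 CPM for Δfne, 3.69 ± 0.728 CPM for Δrbp9 and 4.72 ± 0.470 CPM for ΔfneΔrbp9 (SD, n = 5), and its largest difference from wild type was that of Δrbp9 (log2 −0.41, 95% interval −0.70 to −0.12, adjusted p = 0.0264).

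Of the 8 antennal olfactory IRs tested, only Ir41a, a tuning receptor for polyamines, was called. Its wild-type levels were 0.544, 0.582, 0.379, 0.433 and 0.466 CPM, from 6 to 12 counts per library. In Δfne it had 0.887, 1.22, 0.991, 1.26 and 0.831 CPM, and in Δrbp9 1.03, 1.06, 0.742, 1.08 and 0.62 CPM. The gene passed the count minimum through the single mutants, with mean normalized counts of 8.35, 18.04, 15.8 and 9.72 in wild type, Δfne, Δrbp9 and ΔfneΔrbp9, so it had to be higher there. Either single mutant lay above wild type in every library, whereas ΔfneΔrbp9 (0.405, 0.861, 0.322, 0.489 and 0.721 CPM) overlapped wild type. Ir41a had a log2 fold change of 1.10 in Δfne (SE 0.242, adjusted p = 0.00173), 0.89 in Δrbp9 (SE 0.248, adjusted p = 0.00887) and 0.22 in ΔfneΔrbp9 (95% interval −0.34 to 0.78). Relative to the added changes of Δfne and Δrbp9, ΔfneΔrbp9 lay at −1.76 (SE 0.347, adjusted p = 0.000752), where 4.34% of all genes had a negative and 4.63% a positive call for this interaction. Δrbp9 was just past the threshold, and in 12 of the 20 fits that left out 1 library it was not called (log2 0.82 to 1.01, adjusted p up to 0.0255). DESeq2 gave an adjusted p of 0.029. ΔfneΔrbp9 against Δfne (log2 −0.87, adjusted p = 0.00986) was lost in 16 of those 20 fits (adjusted p up to 0.0325) and with DESeq2 (0.0315). These 2 calls therefore rest on the choice of libraries and test.

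The other antennal IRs did not pass the test against wild type in any mutant. Ir64a, an acid receptor, had 2.28 to 3.54 CPM in wild type and 3.14 to 3.92 CPM in Δfne (log2 0.31, adjusted p = 0.0755). Ir76a had 5.77 to 9.65 CPM in wild type and 4.31 to 6.42 CPM in Δfne (log2 −0.48, adjusted p = 0.0484). Ir31a had a log2 fold change of 0.04 in Δfne, −0.19 in Δrbp9 and −0.23 in ΔfneΔrbp9. Ir75c reached −0.78 in Δfne (adjusted p = 0.0138) and was called lower there in 2 of the 20 fits that left out a library. Ir84a, a receptor for food-derived aromatics, had 0.574 ± 0.153 CPM in wild type, and its interval in ΔfneΔrbp9 was −0.48 to 1.14, so a change of that size would not be detectable at this depth.

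Among the temperature and humidity IRs, Ir21a, a subunit of the cool receptor, fell in Δrbp9. Its levels in wild type were 4.01, 3.39, 2.78, 4.82 and 4.31 CPM, and in Δrbp9 they were 1.99, 1.86, 1.83, 1.95 and 3 CPM. Of the Δrbp9 libraries only replicate 5 overlapped the wild-type range. Ir21a changed by −0.85 on the log2 scale (SE 0.17, adjusted p = 0.000638). Δfne (2.66 to 4.26 CPM, log2 −0.19) and ΔfneΔrbp9 (2.49 to 3.5 CPM, log2 −0.31, adjusted p = 0.158) were not called. On the opposite strand 79.4% of its exon bases overlap the antisense RNA gene asRNA:CR43609, whose own log2 fold change in Δrbp9 was −0.03, and without a stated strand setting in the counting their reads cannot be told apart. Ir68a, a subunit of the moist receptor, had 4.94 ± 1.02 CPM in wild type and 6.37 ± 1.18 CPM in Δrbp9 (log2 0.37, adjusted p = 0.0482). Ir40a of the dry receptor and Ir93a, which acts with these tuning subunits, were called in no comparison.

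The remaining IRs included the genes with the clearest differences. Ir47b, listed as a pseudogene at 10376238 to 10377540 on chromosome 2R, had 0.742, 0.775, 1.01, 0.989 and 1.17 CPM in wild type and 2.88, 3.49, 3.57, 3.58 and 2.86 CPM in Δfne. In Δrbp9 it had 1.29, 2.07, 1.77, 2.24 and 2.22 CPM, and in ΔfneΔrbp9 1.62, 1.83, 2.25, 2.15 and 2.23 CPM. Every mutant library was above every wild-type library, and every Δfne library was above every library of the other genotypes. Ir47b had a log2 fold change of 1.81 in Δfne (SE 0.167, adjusted p = 6.02e-08), 1.04 in Δrbp9 (SE 0.171, adjusted p = 9.66e-05) and 1.10 in ΔfneΔrbp9 (SE 0.172, adjusted p = 3.95e-05). ΔfneΔrbp9 was lower than Δfne (log2 −0.71, adjusted p = 0.00185), and the interaction was −1.75 (SE 0.233, adjusted p = 1.31e-05). Of the 11 genes tested within 50 kb of Ir47b, Prx6b was called higher in Δfne. In Δrbp9, Prx6c, CG11825 and CG12896 of these genes were called lower, and in ΔfneΔrbp9 none was called against wild type. Whether differences between the chromosomes near Ir47b had a part in its rise was not tested.

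Ir47b shares 413 exon bases on 1 strand with its upstream neighbour Ir47a, 31.7% of its own exon and 13.8% of that of Ir47a. Reads from that stretch could be split or dropped by the counting. Ir47a itself did not rise in any mutant, with means of 11.3 ± 0.626 CPM for wild type, 9.73 ± 1.14 CPM for Δfne, 10.6 ± 0.261 CPM for Δrbp9 and 9.32 ± 1.19 CPM for ΔfneΔrbp9 (SD, n = 5), and log2 fold changes of −0.21, −0.09 and −0.27 (lowest adjusted p 0.0163). Ir62a, known for avoidance of calcium in taste, was called in no comparison. Its log2 fold changes were −0.12, 0.03 and 0.06, with 95% intervals from −0.34 to 0.28 over the 3 mutants.

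Ir51a, another pseudogene in the annotation (chromosome 2R, 15204654 to 15206334), fell in Δfne. Wild type had 1.29, 2.04, 1.96, 1.05 and 1.92 CPM and Δfne 0.148, 0.873, 0.545, 0.472 and 0.727 CPM, so the groups did not overlap. The log2 fold change was −1.55 (SE 0.293, adjusted p = 0.000418). Δrbp9 had 1.03 to 1.59 CPM (log2 −0.41, adjusted p = 0.262) and ΔfneΔrbp9 0.587 to 1.45 CPM (log2 −0.63, adjusted p = 0.0892), and neither was called. The nearest gene called in all 3 mutants was asRNA:CR44370, at 20604 bases on the same strand. It fell by 1.66, 0.56 and 0.72 on the log2 scale in Δfne, Δrbp9 and ΔfneΔrbp9, the same order of sizes as Ir51a.

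Ir100a was under the count minimum and was singled out after its values had been seen. Its counts in the 5 wild-type libraries were 23, 16, 29, 20 and 26. Of the 15 mutant libraries 10 had no count and none had more than 3, with sums of 3 in Δfne, 4 in Δrbp9 and 3 in ΔfneΔrbp9. Wild type was therefore apart from all mutants, and by summed counts it was 40.3-fold above Δfne (95% interval 13.5 to 198), 26.9-fold above Δrbp9 (10.2 to 101) and 32.5-fold above ΔfneΔrbp9 (10.8 to 160), intervals that cover counting error only. In an edgeR fit with no count minimum (16101 genes) it was called lower in all 3, with adjusted p of 1.67e-05, 4.38e-05 and 3.19e-05. Of the 14 genes tested within 50 kb of it on chromosome 3R, only CG2150 was called, and it was higher in each mutant. Gr59d showed a like, smaller contrast, with 6, 7, 7, 7 and 9 counts in wild type and 0 to 3 counts in each mutant library. In the same fit it was called lower in Δfne (adjusted p = 0.00108) and Δrbp9 (adjusted p = 0.00166) and not in ΔfneΔrbp9 (adjusted p = 0.0169).

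Among the GRs, both subunits of the CO2 receptor rose in Δfne. Gr21a had 1.04, 0.921, 0.884, 0.989 and 1.51 CPM in wild type and 2.37, 1.75, 1.69, 1.57 and 2.8 CPM in Δfne. All Δfne libraries were above wild type, and the log2 fold change was 0.92 (SE 0.197, adjusted p = 0.00136). Gr63a had 2.52, 1.41, 1.89, 1.85 and 1.92 CPM in wild type and 3.55, 4.08, 3.02, 3.11 and 2.49 CPM in Δfne, with an overlap of 1 library in each group. Its log2 fold change was 0.75 (SE 0.184, adjusted p = 0.00397). In the same comparison the antennal markers Orco, Obp84a, a10 and Snmp1 had log2 fold changes of 0.58, 1.17, 0.34 and 0.28. Obp83a went the other way (log2 −0.41, adjusted p = 0.00011), and Obp19d (−0.14) and Obp69a (−0.02) were also below 0. The values of lush, Obp28a and Obp83b were 0.20, 0.14 and 0.12, and the summed markers overlapped wild type. The part of these markers in the rise of the antennal receptor genes, Ir25a included, was not tested. With only the 2 genotypes in the fit, both genes missed the threshold narrowly, at adjusted p = 0.0109 for Gr21a and 0.0103 for Gr63a. Gr63a was also not called without wild-type replicate 2 (0.0131), Δfne replicate 1 (0.0101) or Δfne replicate 2 (0.0141).

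In Δrbp9 neither CO2 receptor gene differed by a called amount. Gr21a had 0.685 to 1.16 CPM there (log2 −0.09, 95% interval −0.53 to 0.35) and Gr63a 1.86 to 2.17 CPM (log2 0.08, 95% interval −0.32 to 0.48). In ΔfneΔrbp9 Gr21a had 1.74, 2.1, 1.35, 1.76 and 1.83 CPM, with a single library under the highest of wild type. It was called against wild type (log2 0.72, adjusted p = 0.00853) and against Δrbp9 (log2 0.80, adjusted p = 0.0063). The first of these calls was lost in 11 and the second in 7 of the 20 fits without 1 library, with adjusted p up to 0.0279 and 0.0207, and DESeq2 gave 0.0163 for the first. Gr63a had 1.77 to 3.66 CPM in ΔfneΔrbp9 and was not called (log2 0.40, adjusted p = 0.107).

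Gr66a, a subunit common to bitter taste receptors, rose in both genotypes without FNE. Its levels were 1.04, 1.36, 1.52, 1.11 and 1.34 CPM in wild type and 1.22, 0.957, 1.6, 1.66 and 1.7 CPM in Δrbp9. In Δfne they were 2.66, 1.98, 2.43, 2.95 and 2.65 CPM and in ΔfneΔrbp9 1.97, 2.91, 2.64, 2.35 and 2.16 CPM. Thus every library without FNE exceeded every library with FNE. The log2 fold change was 0.99 in Δfne (SE 0.169, adjusted p = 0.000137), 0.92 in ΔfneΔrbp9 (SE 0.171, adjusted p = 0.000274) and 0.17 in Δrbp9 (95% interval −0.21 to 0.54). ΔfneΔrbp9 was also called higher than Δrbp9 (log2 0.75, adjusted p = 0.00281). Among the fits leaving out 1 library, that call was lost without ΔfneΔrbp9 replicate 2 (log2 0.67, adjusted p = 0.0102) and in no other. Of the 20 genes tested within 50 kb of Gr66a, CG7194 was called higher and CG34462 lower in Δfne. Against wild type, CG13670 was called lower in ΔfneΔrbp9, and none of the 20 was called in Δrbp9. Whether differences between the chromosomes near Gr66a had a part in its rise was not tested.

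The other bitter receptors tested did not differ from wild type by a called amount. Gr33a, which is needed for many bitter responses, had 0.757 ± 0.263 CPM in wild type and 1.11 ± 0.317 CPM in Δfne (log2 0.53, adjusted p = 0.104). Gr32a, which detects bitter compounds and male pheromone, ranged from 0.891 to 1.67 CPM for wild type, 1.18 to 2.22 CPM for Δfne, 0.685 to 1.17 CPM for Δrbp9 and 0.753 to 1.08 CPM for ΔfneΔrbp9. It was called only for ΔfneΔrbp9 against Δfne, where the libraries did not overlap (log2 −0.84, adjusted p = 0.00499), and DESeq2 (adjusted p = 0.013) did not call it. Nor was it called without Δfne replicate 1 or 3 or ΔfneΔrbp9 replicate 2, 3 or 5, where the adjusted p was 0.0113 to 0.0163. In that comparison 3 of the 28 receptor genes were lower and none higher, against 3.45% and 3.36% of all genes (6.81% either way), and 7 had an unadjusted p below 0.05. Libraries did not overlap for 3, against 22% of all genes. DESeq2 also called none higher.

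Of the 9 sugar receptors, 2 passed the count minimum, Gr64f and Gr64a. Gr64f, the co-receptor of sugar-sensing GRs, had 0.742, 0.824, 0.632, 0.494 and 0.466 CPM in wild type. Δfne libraries had 0.887, 1.4, 1.24, 1.1 and 1.25 CPM, Δrbp9 libraries 1.48, 1.38, 1.26, 1.66 and 1.29 CPM, and ΔfneΔrbp9 libraries 0.926, 1.18, 1.09, 0.783 and 1.18 CPM. Both single mutants lay above all wild-type libraries, and the double mutant overlapped them by 1 library. Gr64f had a log2 fold change of 0.88 in Δfne (SE 0.18, adjusted p = 0.000999), 1.14 in Δrbp9 (SE 0.179, adjusted p = 6.12e-05) and 0.70 in ΔfneΔrbp9 (SE 0.185, adjusted p = 0.0146, not called). With only Δfne and wild type in the fit, the Δfne difference had an adjusted p of 0.0103. The interaction was −1.31 (SE 0.25, adjusted p = 0.000548).

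Gr64a, at the other end of the same gene cluster on chromosome 3L, showed the largest fold change of the receptor genes tested. It had 0.148, 0.145, 0.126, 0.494 and 0.175 CPM in wild type, 0.0739 to 0.551 CPM in Δfne and 0.174 to 0.587 CPM in ΔfneΔrbp9, from 1 to 14 counts per library. In Δrbp9 it had 2.89, 2.18, 1.6, 2.24 and 2.32 CPM, from 28 to 45 counts. Only the Δrbp9 libraries stood apart, with a log2 fold change of 3.35 (SE 0.376, adjusted p = 9.29e-07) against wild type. ΔfneΔrbp9 was lower than Δrbp9 by 2.49 on the log2 scale (SE 0.353, adjusted p = 3.37e-05), and the interaction was −3.12 (SE 0.568, adjusted p = 0.000357). Gr64a passed the count minimum through Δrbp9 alone, with mean normalized counts of 3.79, 5.52, 39.0 and 6.99 in wild type, Δfne, Δrbp9 and ΔfneΔrbp9, so a gene kept in this way had to differ, and it is no support for the counts of receptor genes given above.

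Between Gr64a and Gr64f lie 4 more sugar receptor genes that gave almost no reads. Gr64b and Gr64c had 0 counts, Gr64d had 8 and Gr64e had 4 over all libraries. In the annotation Gr64b and Gr64c share 100% of their exon bases, and Gr64d shares 97.3% with Gr64e, so their reads could be ambiguous to the counting, and a low count does not show low expression. Of the 11 genes tested within 50 kb of Gr64a, only Gr64f was called higher in Δrbp9. Gr5a, the trehalose receptor, was under the count minimum with 3 to 5 counts in wild-type libraries, 5 to 16 in Δfne, 3 to 13 in Δrbp9 and 3 to 9 in ΔfneΔrbp9. On the other strand asRNA:CR44958 overlaps 74.4% of the exon bases of Gr5a, and without a stated strand setting in the counting their reads cannot be told apart. Gr43a, the fructose receptor, had 3 to 8, 3 to 10, 8 to 10 and 0 to 11 counts in the same order. Neither gene was called in the fit with no count minimum.

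**Figure D4:**
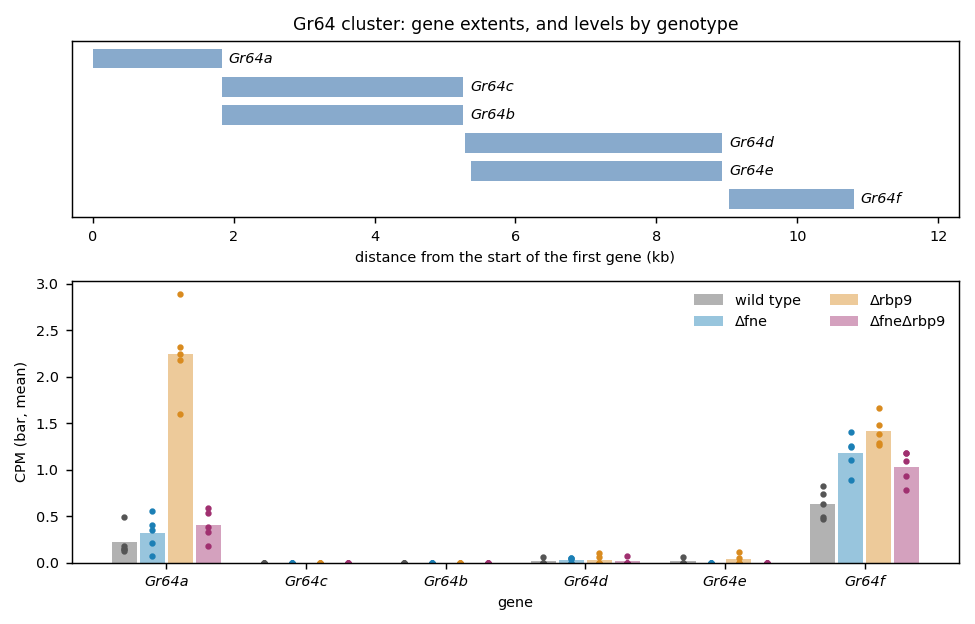
Gr64 cluster. Top, extent of the 6 genes along the chromosome (x axis, kb from the start of Gr64a); bottom, their CPM by genotype, with bars at the mean of 5 libraries and a point per library. Gr64a is high in Δrbp9 only, Gr64f is above wild type in both single mutants, and the 4 genes between them are at or near 0.

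Gr28b, a receptor with roles in warmth and light sensing, fell in Δrbp9. It had 2.03, 1.74, 1.52, 1.92 and 2.16 CPM in wild type and 1.03, 1.33, 1.26, 0.651 and 1.03 CPM in Δrbp9, with no overlap. The log2 fold change was −0.81 (SE 0.189, adjusted p = 0.00256). In ΔfneΔrbp9 it had 1.03 to 1.66 CPM (log2 −0.58, adjusted p = 0.0217) and in Δfne 1.26 to 2.03 CPM (log2 −0.28, adjusted p = 0.262), and neither was called. The neighbouring Gr28a was at 0 in all wild-type libraries and at 0 to 4 counts in the mutants.

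**Figure D5:**
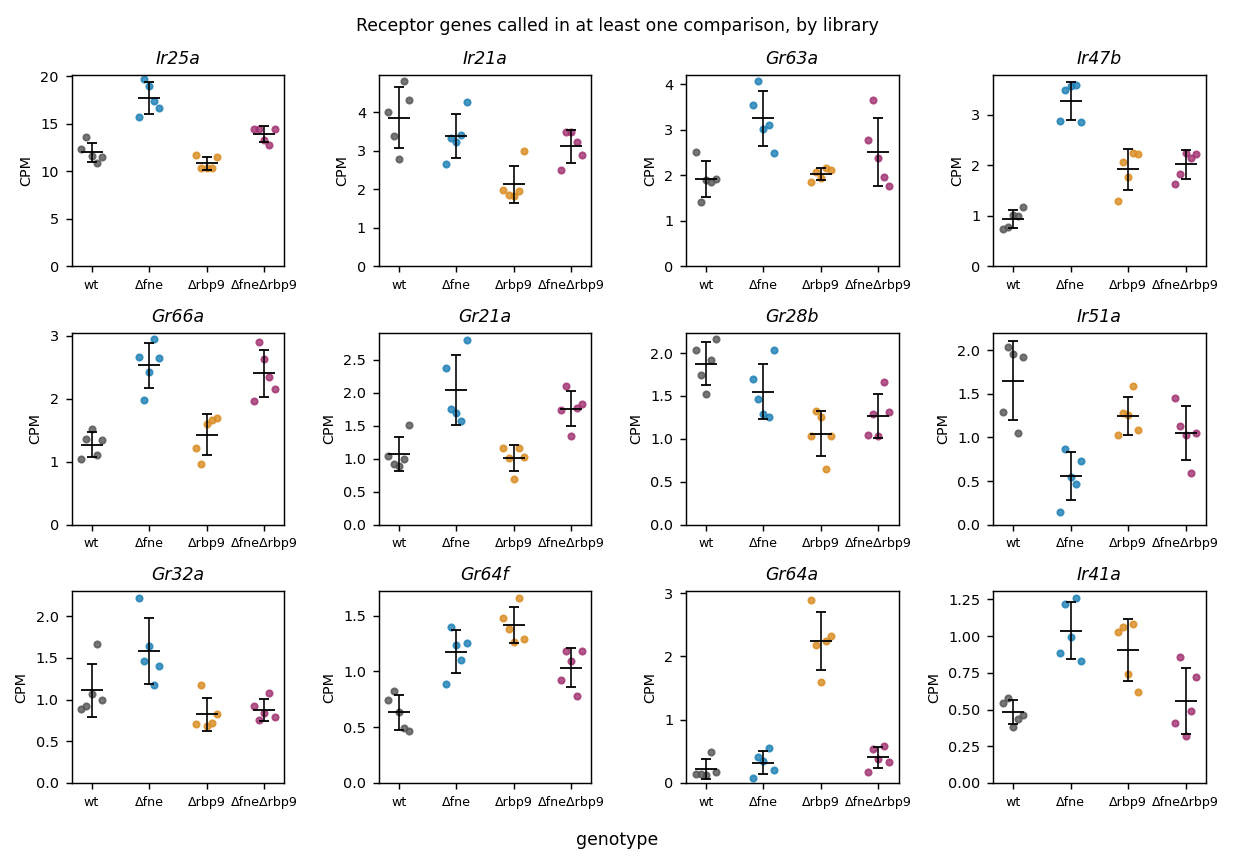
CPM (y axis, from 0) of the 12 receptor genes called in at least 1 comparison, by genotype (x axis), with a point per library, a line at the mean of 5 libraries and bars of 1 SD. Gr66a is high in both genotypes without FNE, Gr64a in Δrbp9 only, and Ir41a in the single mutants more than in ΔfneΔrbp9.

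ΔfneΔrbp9 against Δrbp9 gave 2 receptor genes higher (Gr66a and Gr21a) and 1 lower (Gr64a), against 2.77% and 1.88% of all genes tested (4.66% either way). Libraries did not overlap for 6 of the 28 receptor genes, against 22.1% of all genes, about the same share. The interaction was called negative for Gr64f and Ir47b, and also for Ir41a and Gr64a, which passed the count minimum only through single mutants, so that a negative value was built into their selection. Of all genes, 8.97% were called either way. For Gr64f, Ir47b, Ir41a and Gr64a the double mutant was thus below what adding the single-mutant changes gives. None of the receptor genes was called positive. Among the 8 receptor genes with an unadjusted p below 0.05, Ir21a, Ir51a, Ir75c and Ir8a had positive values, and DESeq2 called Ir51a. Of the receptor genes tested, 16 were called in no comparison.

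Genes that work beside these receptors were compared from a list of 32 odorant co-receptor, odorant-binding, pickpocket and related sensory genes, of which 30 were in the table and 25 were tested. In Δfne, Orco, the co-receptor of the odorant receptor family, rose from 46.7 ± 4.39 CPM to 69.8 ± 4.28 CPM (log2 0.58, adjusted p = 5.4e-07), and ppk28, the water taste channel, fell from 2.25 ± 0.150 CPM to 0.724 ± 0.103 CPM (log2 −1.62, adjusted p = 1.31e-05; SD, n = 5). In Δrbp9 only Obp83a, an odorant-binding protein of the antenna, was called (log2 −0.50, adjusted p = 1.12e-05). In ΔfneΔrbp9 ppk28 fell again, to 0.674 ± 0.179 CPM (log2 −1.71, adjusted p = 7.92e-06), and so did Est-6, an esterase of the antenna and the male reproductive tract (log2 −1.09, adjusted p = 0.0022), which ranged from 166.8 to 534.1 CPM within wild type. The list thus had 1 gene higher and 1 lower in Δfne, 1 lower in Δrbp9 and 2 lower in ΔfneΔrbp9, against 8.04%, 8.05% and 9.53% of all genes called either way, so with 2, 1 and 2 of 25 genes it was at or below the background. Its median log2 fold change was 0.03, −0.13 and −0.10.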

How the data were processed

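Total RNA-seq libraries (stranded, depleted of ribosomal RNA) of 20 head samples were grouped by the genotype in the labels. Per the labels, the authors mapped reads to dm6 with STAR and deposited raw counts per gene from featureCounts (Subread), as a table without normalization. The study's methods name snakePipes and an Ensembl annotation. Tool versions, the strand setting and the treatment of ambiguous reads are not given in the sources used here. A second deposited table, not used, holds a DESeq2 test by the authors of ΔfneΔrbp9 versus wild type (base mean, log2 fold change, its error, test statistic and p-values).

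Symbols, exon lengths and coordinates came from the Ensembl BDGP6 annotation, the assembly of dm6, which gave a position to 17252 of 17558 IDs. The other 306 stayed in the tests. A single edgeR fit (edgeR 4.0.16, limma 3.58.1, R 4.3.3) held all 20 libraries as 4 genotype means with TMM factors. Genes with a mean normalized count above 10 were tested (10560). An interaction term compared the log2 change of the double mutant with the added log2 changes of Δfne and Δrbp9. The 95% intervals of fold changes use the residual degrees of freedom of the libraries. CPM is the count per 1e6 counts of the library total times its TMM factor. Within genotypes, all 40 pairs of libraries differed beyond counting error (smallest chi-square per degree of freedom 5.46), and since libraries are called replicates without further detail in the labels, p-values measure the spread between these samples. The code was tested on simulated data.

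Alternatives were DESeq2 size factors, scaling by total count, DESeq2 1.42.0, no count minimum, no fold cutoff, only the groups compared, a replicate block and leaving out each library. Genes with values in the text were the co-receptors, a fixed set of well-known GRs, the 12 highest in mean CPM, all called genes and the 3 on either side of the count minimum. Others named were chosen after their values were seen. The receptor genes, roles and lists were chosen with earlier results of these data known.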

Additional observations from a re-analysis of the deposited data

Results flagged for a closer look

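Within genotypes of 5 libraries, the CPM of each receptor gene tested was checked for a single library far from the others (Dixon's criterion). Of 112 groups checked 6 were flagged, and chance flags about 1 in 20 groups. In Δfne, Ir47a was 11.7 CPM in replicate 2 (next 9.61 CPM), and Ir76b was 11.3 CPM in replicate 3 (next 10 CPM). In Δrbp9, Ir21a was 3 CPM in replicate 5 (next 1.99 CPM). In wild type, Gr21a was 1.51 CPM in replicate 5 (next 1.04 CPM), and in replicate 4 Gr32a was 1.67 CPM (next 1.07 CPM) and Gr64a was 0.494 CPM (next 0.175 CPM).

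For 4 receptor genes the change on loss of RBP9 differed between flies with and without FNE, by the interaction term on the log2 scale. The difference was −1.76 for Ir41a (adjusted p = 0.000752), −3.12 for Gr64a (adjusted p = 0.000357), −1.31 for Gr64f (adjusted p = 0.000548) and −1.75 for Ir47b (adjusted p = 1.31e-05), all from edgeR. Gr64a and Ir41a had passed the count minimum only through single mutants, where they are high, so a negative value was built into their selection. Leaving out each library in turn kept all 4 calls, with values from −1.99 to −1.61 for Ir41a, −3.62 to −2.81 for Gr64a, −1.44 to −1.24 for Gr64f and −1.86 to −1.68 for Ir47b.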

How the results depend on the processing

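No fold change of a called receptor gene turned its direction under any alternative. With only the genotypes compared in the fit, 4 receptor genes were higher in Δfne (Gr21a, Gr63a and Gr64f lost), 3 in Δrbp9 (Ir41a lost) and 2 in ΔfneΔrbp9 (Gr21a lost), and Ir100a was added to the genes lower in each mutant, which made 2, 3 and 1. Without the count minimum, 3 were lower in Δfne, 4 in Δrbp9 and 1 in ΔfneΔrbp9 (Ir100a in each, Gr59d in the single mutants), 1 was higher in ΔfneΔrbp9 than in Δrbp9, and 1 interaction was positive (Gr59d). Without the fold cutoff 4 were higher in ΔfneΔrbp9 than in Δrbp9 (Ir25a and Ir76b added). DESeq2 left 1 lower in ΔfneΔrbp9 than in Δfne (Ir47b) and called 1 positive interaction (Ir51a).

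Leaving out 1 library gave 6 to 7 genes higher and 1 to 2 lower in Δfne, 1 to 3 lower in ΔfneΔrbp9 than in Δfne, 0 to 2 higher in ΔfneΔrbp9 than in Δrbp9 and 0 to 1 positive interactions. The count of Δfne genes lower was 2 (with Ir75c) without wild-type replicate 5 or ΔfneΔrbp9 replicate 3. The count for ΔfneΔrbp9 below Δfne was 1 without Δfne replicate 1 or 3 or ΔfneΔrbp9 replicate 3. The count for ΔfneΔrbp9 above Δrbp9 was 0 without ΔfneΔrbp9 replicate 2 and 1 without Δrbp9 replicate 2 or 3 or ΔfneΔrbp9 replicate 1, 4 or 5. A positive interaction appeared without Δfne replicate 2, Δrbp9 replicate 5 or ΔfneΔrbp9 replicate 3.

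With the replicate number as a block, 7 genes were higher in Δfne, 4 in Δrbp9 and 3 in ΔfneΔrbp9, as without it, and 2 instead of 3 were lower in ΔfneΔrbp9 than in Δfne (Gr32a lost, adjusted p = 0.0128). The labels do not say that a number marks shared animals or days. Only 8 of 30 same-numbered pairs of libraries had a correlation over 0.1 in their deviations from the genotype means, and 7 of 20 libraries correlated best with their own number.

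The number of receptor genes detected moved with each choice. Counting any gene with more than 0 counts gave 104 in wild type, 108 in Δfne, 109 in Δrbp9 and 109 in ΔfneΔrbp9. More than 10 counts gave 32, 37, 37 and 33, and a single random thinning of the libraries to the smallest total gave 47, 49, 51 and 53. For receptor genes under the count minimum these data set few limits on a change.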
